A study of Mus musculus with 15 samples.

Results

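Interferon-stimulated genes were followed in the trigeminal ganglion (TG) of mice with an injured cornea that had been treated with vehicle, RvD6 or its stereoisomer RvD6si. The set is a list of 40 gene symbols of the interferon response, a choice by name whose rule used no value of these samples but which was made with earlier results of these data known, and all 40 were found among the 55573 genes of the count table. Of these, 35 had enough reads to be tested, within the 16567 genes tested in all. Isg15, Oas2, Oas3, Mx1 and Zbp1 did not pass the filter on low counts and are described by their counts only.

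The mice were male CD1 animals, 10 weeks old. In every group, vehicle included, the centre of the right cornea was marked with a trephine and its epithelium and anterior stroma were removed, so no group shows the uninjured TG. Eyes then received vehicle, RvD6 (labelled RvD6-standard) or RvD6si (labelled RvD6-isomer) 3 times a day, and the right TG was taken on day 12 from 5 mice in each group. Each sample is a whole ganglion in which neurons, glia and blood-borne cells were not separated, and fewer cells of a type cannot be told apart from less RNA per cell. The libraries were made from 1 ng of RNA by an oligo-dT, full-length amplification protocol without molecular identifiers. The labels call the 5 samples of a group samples and give no litter, day or batch, so p-values measure the spread between these samples.

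Interferons are secreted when a cell detects foreign or misplaced nucleic acid. Type I interferons signal through the receptor chains IFNAR1 and IFNAR2 to a transcription factor complex that includes STAT2 and IRF9 and binds the interferon-stimulated response element (ISRE), while interferon gamma acts through the gamma-activated site (GAS). The induced genes encode sensors of viral RNA, enzymes that block translation or degrade RNA, membrane proteins that hinder viral entry, and GTPases that attack vacuoles holding parasites. Sensory neurons are hosts of latent herpesviruses, and a low level of interferon-stimulated genes is found in many healthy tissues.

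The reference promoters show what the genes share apart from their counts. RefSeq promoter windows on GRCm38.p6, from 250 bases before to 50 bases after each gene start, were present for 31 of the 40 genes. The ISRE core GAAANNGAAA, searched on both strands, was found in the windows of 19 of these 31 genes (61.3%) and in those of 3.99% of all 27025 genes with a window. The GAS core TTCNNNGAA, the same on both strands, was found in 10 of the 31 genes (32.3%) and in 9.55% of all genes. The GAS core has fewer fixed letters and is therefore the more common of the pair among all genes, and overlapping ISRE matches were counted separately. Matches describe letters in these windows and are not binding sites; Rtp4, Ifi27, Parp14, Mx1, Oas2, Zbp1, Iigp1, Dhx58 and Mx2 were not in the table.

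Windows of up to 40 bases around the ISRE core are shown for genes whose counts are described below, with the core in capitals and each sequence given 5′ to 3′ on the strand of its gene. Isg15 is shown because it holds 3 overlapping cores although its counts were near 0, and Ifit3 and Ifit3b because both of their windows are identical in the 2 genes, which are near copies. The windows lie at chr4:156200860-156200899 (Isg15, minus strand), chr19:34583358-34583397 (Ifit3, plus), chr19:34607754-34607793 (Ifit3b, plus), chr2:62646206-62646238 (Ifih1, minus), chr11:48871420-48871459 (Irgm1, minus), chr12:26456548-26456587 (Rsad2, minus), chr10:128270261-128270300 (Stat2, plus) and chr11:58199507-58199546 (Igtp, plus).
Isg15: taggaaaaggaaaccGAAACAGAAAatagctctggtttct
Ifit3: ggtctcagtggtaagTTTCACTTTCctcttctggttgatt
Ifit3b: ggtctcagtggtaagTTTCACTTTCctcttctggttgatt
Ifih1: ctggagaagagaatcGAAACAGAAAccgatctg
Irgm1: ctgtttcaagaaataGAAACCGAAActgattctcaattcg
Rsad2: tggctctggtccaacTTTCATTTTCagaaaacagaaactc
Stat2: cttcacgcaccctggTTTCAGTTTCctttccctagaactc
Igtp: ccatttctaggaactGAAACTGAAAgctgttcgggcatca

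Of the 29 cores found in the genes of the set, 24 began before the annotated start. The core shown for Stat2 began 222 bases before the start, that of Rsad2 120 bases before it and that of Igtp 34 bases before it, whereas the core of Ifih1 lay 32 bases after the start.

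**Figure D1:**
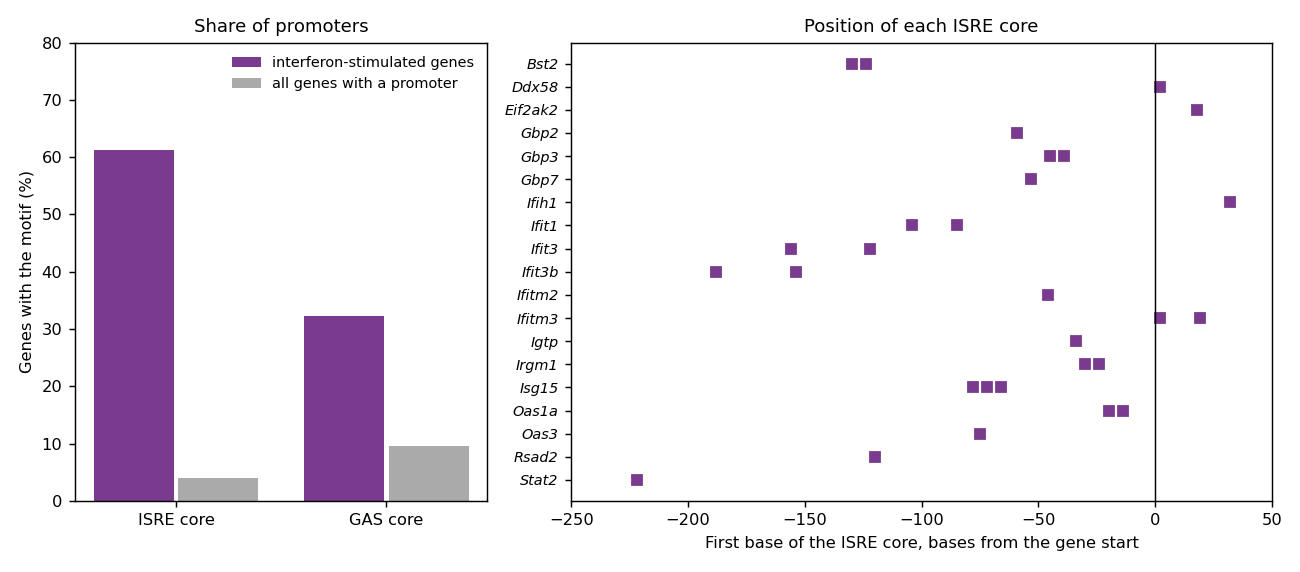
Left, share of genes (%) with the ISRE or GAS core in the promoter window, for the 31 interferon-stimulated genes with a window (purple) and all 27025 genes (grey). Right, distance in bases from the gene start (line at 0) to the first base of each of the 29 ISRE cores, by gene; 24 of the cores lie before the start.

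The samples held between 4125962 and 9903396 counted reads (median 7756538). The tissue label was borne out by 7 sensory neuron markers, none of which was at 0 in a whole group. Their summed level was 8527 to 9366 CPM (reads scaled to a common library size by TMM) with vehicle, 4944 to 8276 CPM with RvD6 and 7450 to 9464 CPM with RvD6si, so that every RvD6 sample lay below every vehicle sample. For RvD6 against vehicle 4 of the 7 had an unadjusted p below 0.05 in edgeR, 0 of 7 passed the adjusted threshold, and the median log2 fold change was -0.35. Libraries stood apart in the signal of neutrophil, precursor and erythroid markers. The 9 markers of neutrophils and their precursors (Elane, Mpo, Prtn3, Ngp, Camp, Ltf, S100a8, S100a9 and Retnlg) summed to 113 to 601 CPM with vehicle, 713 to 2300 CPM with RvD6 and 54.9 to 126 CPM in 4 RvD6si samples, but to 2000 CPM in RvD6si replicate 15. The 6 erythroid markers followed, at 2381 to 5060, 5729 to 10562 and 935 to 2609 CPM, against 11981 CPM in RvD6si replicate 15. All 9 and all 6 were above vehicle with an unadjusted p below 0.05 for RvD6, and none of them passed the adjusted threshold in edgeR. The 5 skeletal muscle markers summed to 15.3 to 138 CPM with vehicle, 74.3 to 2183 CPM with RvD6 and 7.48 to 25.5 CPM with RvD6si. The 3 pituitary markers (Gh, Prl and Pomc) summed to 7.35 to 3720 CPM with vehicle, 224 to 2275 CPM with RvD6 and 19.8 to 651 CPM with RvD6si. The value of 3720 CPM was that of vehicle replicate 3. No listed marker of these lists was at 0 throughout a group. The part of these libraries in the results below was not tested beyond the values given.

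The level of the set in the TG was uneven. Compared per length of exon as RPKM (reads per kilobase of exon, scaled to library size), Ifi27, a small mitochondrial and nuclear-envelope protein gene, stood first, with 195 ± 29.1 in vehicle, 146 ± 22.2 with RvD6 and 140 ± 19.7 with RvD6si (mean ± SD, n = 5). Ifitm3, which encodes an endosomal membrane protein that hinders virus fusion, followed at 91.6 ± 19.1, 88.8 ± 8.51 and 74.3 ± 23.4 RPKM. Ifi35, which encodes a leucine-zipper protein, had 16.9 ± 4.16 RPKM in vehicle, the IFITM family member Ifitm2 had 12.2 ± 0.92 and the GTPase gene Igtp had 8.91 ± 4.62. Ifi27 and Ifitm3 were separated from each other and from Ifi35 by more than their SD, while Ifitm2 and Igtp lay within 1 SD of Igtp of each other. At the other end Oas3 averaged 0.0354 RPKM over all samples. Ifi27 alone supplied 33.0% of the summed CPM of the set and Ifitm3 8.08%. Part of the exonic bases of Ifitm2 (40.9%) and Ifi35 (16.8%) also belongs to other genes, and reads shared by near copies (Ifit3 with Ifit3b, Oas1a with its family, Ifitm2 with Ifitm3) cannot be assigned with certainty.

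**Figure D2:**
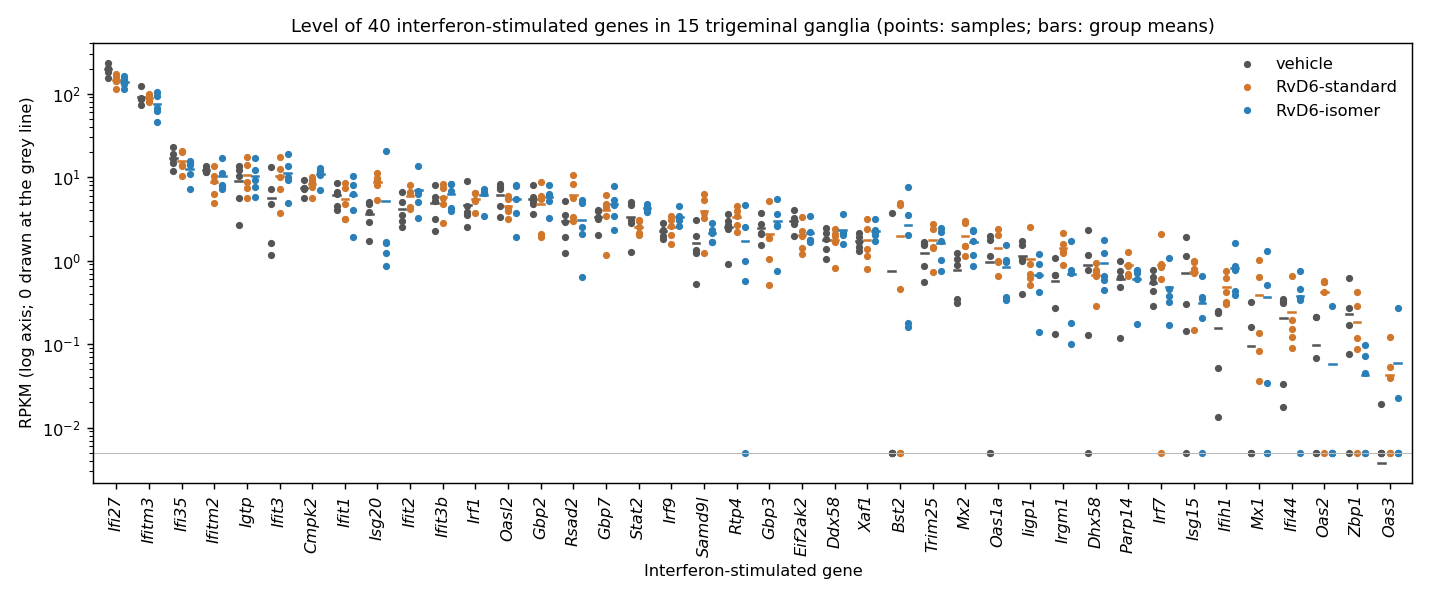
RPKM (log axis) of the 40 genes in each of the 15 samples (points) with group means (bars), ordered by the mean over all samples; values of 0 are drawn at the grey line. Ifi27 and Ifitm3 stand above all others, at 160 and 84.9 RPKM on average, and Oas3 is lowest at 0.0354.

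The 5 genes that were not tested had few reads in most samples. Isg15, the ubiquitin-like protein conjugated to other proteins after interferon, had 0 to 11 reads per sample and was at 0 in 2 samples. Mx1, a dynamin-like GTPase that blocks influenza virus, had 0 to 43 reads, Oas2 0 to 24, Oas3 0 to 8 and Zbp1, a sensor of Z-form nucleic acid, 0 to 20. The highest counts of Mx1, 43 in RvD6si replicate 12 and 31 in RvD6 replicate 7, were as high as those of some tested genes, but no test was made for these 5 genes.

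Across the set, 0 of the 35 tested genes differed from vehicle with RvD6si at an adjusted p below 0.05 in the edgeR quasi-likelihood test, where 0.67% of all tested genes did. With RvD6, 0 of 35 differed from vehicle, and 0.0% of all tested genes did. Between RvD6si and RvD6 the count was also 0 of 35, with 0.235% of all genes. By DESeq2, Ifi27 alone, lower with RvD6si than with vehicle, was called among the 22 genes to which DESeq2 gave an adjusted p (4.55%), against 8.13% of all genes. DESeq2 called 0 of 34 for RvD6 against vehicle, where 1.92% of all genes were called, and 0 of 34 between RvD6si and RvD6, where 0.936% were. Isg20 was the gene without an adjusted p in both of these. With only the 2 groups compared, DESeq2 called Isg20 for RvD6 against vehicle (adjusted p = 0.0116). The share of all genes called was not counted for that fit, so this call has no share to be set beside.

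At an unadjusted p below 0.05 in edgeR, 4 of 35 genes (11.4%, both directions together) differed between RvD6si and vehicle. Among all genes 8.69% were higher and 7.3% lower. Ifih1, Mx2 and Cmpk2 were the 3 higher ones and Ifi27 was the 1 lower. For RvD6 against vehicle there were 6 of 35 (17.1%, both directions together), where 7.63% of all genes were higher and 5.99% lower. The 5 higher ones were Ifih1, Mx2, Samd9l, Irgm1 and Rsad2, and the 1 lower was Ifi27. Between RvD6si and RvD6 there were 3 of 35 (8.57%, both directions together), where 4.18% of all genes were higher and 4.64% lower. Stat2 was the 1 higher in RvD6si, and Samd9l and Rsad2 were the 2 lower. Both comparisons with vehicle use the same 5 vehicle samples, so a gene that appears in both is not seen in independent data.

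Groups that did not overlap were also few. All 5 samples of RvD6si lay outside the vehicle range for 2 of 35 genes, Ifih1 and Ifi27 (5.71%, against 4.91% of all genes). For RvD6 against vehicle these were Ifih1 and Isg20 (5.71%, against 3.77%), and between the lipids Stat2 (2.86%, against 1.81%). The median log2 fold change of the 35 genes was 0.25 for RvD6si and 0.21 for RvD6 against vehicle and 0.09 for RvD6si against RvD6, where the medians over all genes tested were 0.02, 0.02 and -0.0039. Values above 0 were found for 21, 22 and 20 of the 35 genes.

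The precision allowed large differences to be bounded for only part of the set. The 95% interval of the log2 fold change lay within -1 and 1 for 10 of 35 genes with RvD6si against vehicle, for 12 with RvD6 against vehicle and for 16 between the lipids. It reached past both -1 and 1 for 7, 6 and 5 genes, among them Bst2, the membrane tether tetherin, which had no read in 4 of the 5 vehicle samples and in 6 of the 15 samples, so that it passed the filter through the other samples.

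**Figure D3:**
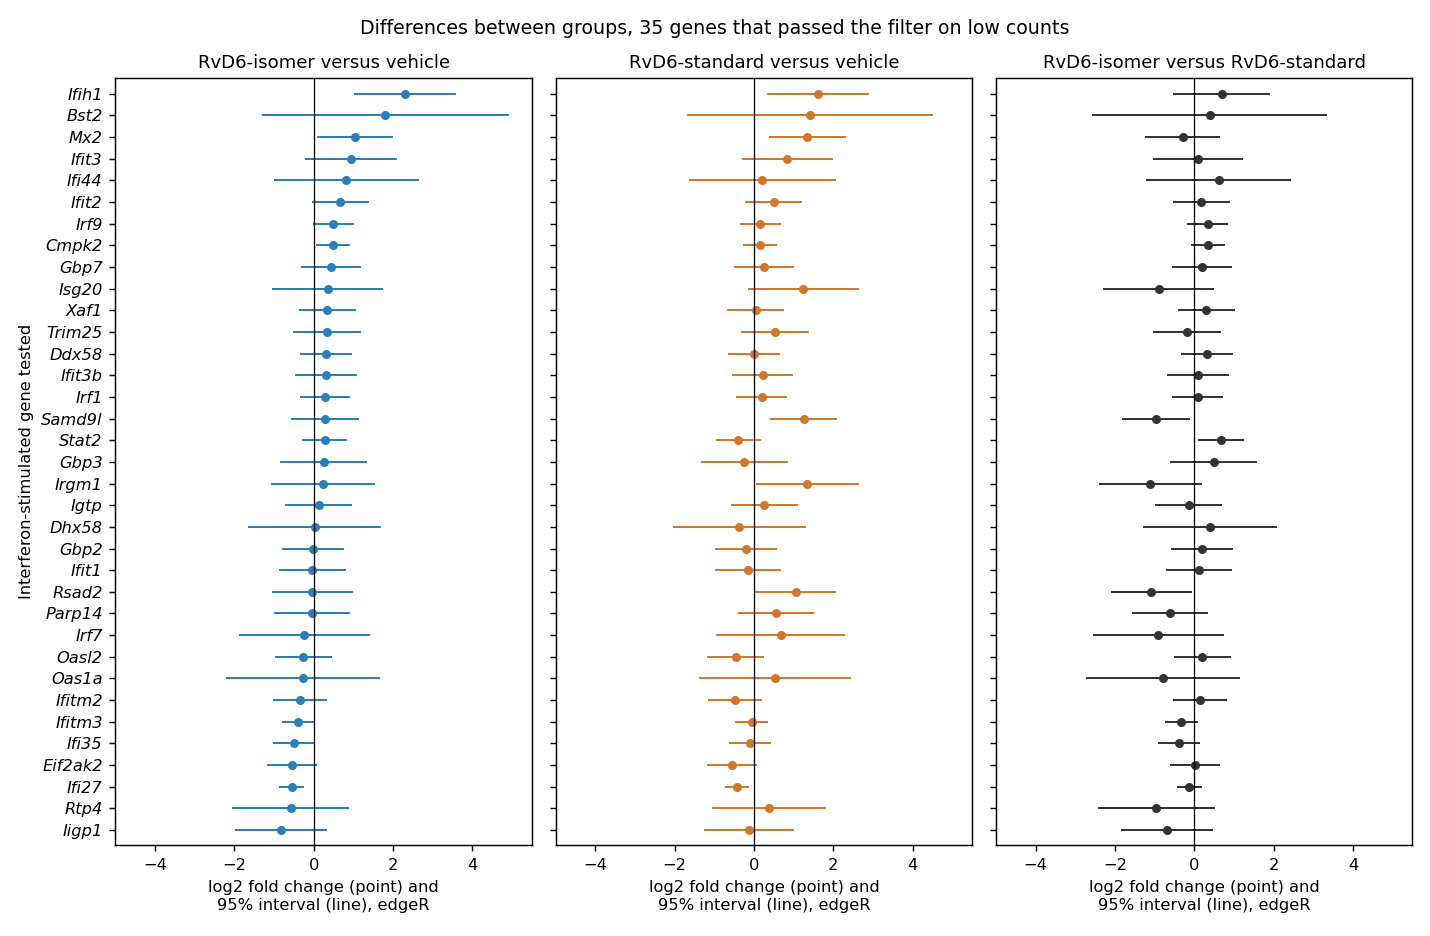
Log2 fold changes (points) with 95% intervals (lines) from edgeR for the 35 genes tested, ordered by RvD6si (RvD6-isomer) against vehicle. Ifih1 lies farthest from 0 at 2.30 for RvD6si and 1.61 for RvD6 against vehicle, and no gene had an adjusted p below 0.05 in edgeR in the 3 comparisons.

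Among the RNA sensors, Ifih1 encodes MDA5, which recognizes long double-stranded RNA in the cytoplasm. Its level in the vehicle samples was 1.91, 1.99, 0.446, 2.06 and 0.115 CPM. The RvD6 samples had 2.604, 2.576, 5.26, 3.43 and 6.27 CPM, and the RvD6si samples had 3.43, 12.8, 7.04, 3.18 and 5.89 CPM. All 10 treated samples were thus above the highest vehicle sample, and the groups of the 2 lipids overlapped. These levels rest on few reads, 1 to 19 per vehicle sample against 20 to 45 with RvD6 and 22 to 116 with RvD6si. The log2 fold change against vehicle was 2.30 ± 0.61 (SE) for RvD6si, with an adjusted p of 0.0785 in edgeR. For RvD6 it was 1.61 ± 0.61, with an adjusted p of 0.266 in edgeR. DESeq2 gave Ifih1 no adjusted p for RvD6si, since its mean count fell under the filter of that tool, and its fold change there was 2.33. In the RvD6si group the sample with 2000 CPM of neutrophil markers and 11981 CPM of erythroid markers had 5.89 CPM of Ifih1, within the 3.18 to 12.8 CPM of the other 4. Among those 4, the sample with the most Ifih1 also had the most erythroid marker signal, 2609 CPM against 935 to 1366 CPM. Replicate 13 was second in both, with 1366 CPM of erythroid markers and 7.04 CPM of Ifih1. Replicate 14 had more erythroid signal than replicate 11 but slightly less Ifih1, 3.18 against 3.43 CPM, from 22 reads in each. The vehicle samples had 2381 to 5060 CPM of erythroid markers and at most 2.06 CPM of Ifih1. The part of neutrophil and erythroid cells in the Ifih1 values was not tested. Leaving out each library in turn gave fold changes of 1.90 to 2.53 for RvD6si and 1.32 to 1.83 for RvD6 on the log2 scale.

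The other sensors had intervals that included 0. Ddx58, which encodes RIG-I, had a log2 fold change of 0.31 ± 0.31 for RvD6si and -0.0039 ± 0.31 for RvD6 against vehicle. Dhx58, which encodes the regulatory helicase LGP2, had 0.03 ± 0.80 and -0.37 ± 0.80.

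Ifi27 was the other gene whose RvD6si and vehicle samples did not overlap, in the opposite direction. The vehicle samples had 296, 294, 363, 275 and 239 CPM, the RvD6 samples 243, 204, 263, 167 and 210 CPM, and the RvD6si samples 160, 213, 238, 188 and 195 CPM. The highest RvD6si sample lay just under the lowest vehicle sample, at 238.35 and 238.52 CPM. The log2 fold change against vehicle was -0.56 ± 0.15 for RvD6si (adjusted p = 0.0781 in edgeR and 0.00878 in DESeq2). For RvD6 it was -0.43 ± 0.15 (adjusted p = 0.223 in edgeR and 0.123 in DESeq2). After a smooth length trend was taken out of every library, the value for RvD6si was -0.37 with an adjusted p of 0.191 in edgeR. With each library left out in turn and no trend removed, the RvD6si value ran from -0.64 to -0.47. Its adjusted p then ran from 0.0547 to 0.217 in edgeR.

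The direct antiviral effectors were led by Mx2, a dynamin-like GTPase. Its vehicle samples had 3.22, 1.12, 1.34, 3.85 and 4.70 CPM, the RvD6 samples 4.23, 9.94, 11.3, 5.48 and 5.43 CPM, and the RvD6si samples 4.05, 5.94, 8.07, 8.38 and 2.95 CPM. In both lipids most samples lay above the vehicle range and at least 1 lay inside it. The log2 fold change was 1.05 ± 0.46 for RvD6si (adjusted p = 0.265 in edgeR) and 1.35 ± 0.46 for RvD6 (adjusted p = 0.220 in edgeR). Eif2ak2, which encodes the translation-blocking kinase PKR, had -0.55 ± 0.30 and -0.57 ± 0.30. Oas1a and Oasl2, of the family that activates or resembles activators of RNase L, had -0.27 ± 0.93 and -0.26 ± 0.34 for RvD6si and 0.52 ± 0.91 and -0.46 ± 0.34 for RvD6.

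Cmpk2 and Rsad2 are neighbours on chromosome 12 and encode a mitochondrial nucleotide kinase and viperin, an enzyme that makes a chain-terminating nucleotide. Cmpk2 had 30.7, 31.3, 24.5, 30.9 and 39.9 CPM with vehicle, 24.7, 37.5, 43.1, 32.05 and 36.9 CPM with RvD6, and 48.1, 27.8, 49.3, 53.6 and 41.2 CPM with RvD6si. For RvD6si 4 of 5 samples exceeded all vehicle samples, and the log2 fold change was 0.48 ± 0.20 (adjusted p = 0.244 in edgeR). Rsad2 had 5.34, 22.9, 8.69, 15.5 and 13.1 CPM with vehicle, 13.3, 34.96, 15.2, 24.8 and 46.9 CPM with RvD6, and 8.73, 2.64, 20.9, 10.8 and 21.3 CPM with RvD6si. The vehicle and RvD6si samples of Rsad2 covered nearly the same range, and its log2 fold changes were -0.03 ± 0.49 for RvD6si and 1.05 ± 0.48 for RvD6 (adjusted p = 0.351 in edgeR).

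Samd9l encodes a translation inhibitor that restricts poxviruses. It had 16.7, 6.83, 3.01, 7.42 and 11.2 CPM with vehicle, 20.8, 33.2, 7.02, 28.8 and 17.96 CPM with RvD6, and 12.2, 8.68, 8.97, 11.4 and 14.3 CPM with RvD6si. With RvD6, 4 of 5 samples were above every vehicle and every RvD6si sample, and 1 was low. Against vehicle its log2 fold change was 1.25 ± 0.41 for RvD6 (adjusted p = 0.197 in edgeR) and 0.29 ± 0.41 for RvD6si (adjusted p = 0.782 in edgeR).

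Isg20 encodes an exonuclease that degrades single-stranded RNA, and its value for RvD6si rested on a single library. It had 3.22, 7.08, 9.92, 8.93 and 5.62 CPM with vehicle and 19.2, 14.7, 17.7, 9.94 and 20.7 CPM with RvD6. The RvD6si samples had 1.56, 2.20, 3.07 and 3.03 CPM in replicates 11 to 14 and 35.8 CPM in replicate 15. The RvD6 samples were all above vehicle, the lowest of them by a small margin (9.94 against 9.92 CPM), and RvD6si replicates 11 to 14 were all below vehicle while replicate 15 was the highest of all 15 samples. The log2 fold change was 1.25 ± 0.66 for RvD6 (adjusted p = 0.428 in edgeR) and 0.35 ± 0.67 for RvD6si (adjusted p = 0.848 in edgeR). DESeq2 gave Isg20 no p with all samples, and an adjusted p of 0.0116 for RvD6 with only the 2 groups compared. Without RvD6si replicate 15 the value for RvD6si against vehicle was -1.49 (adjusted p = 0.0673 in edgeR), and RvD6si against RvD6 was -2.73 (adjusted p = 0.00163 in edgeR), compared with -0.89 (adjusted p = 0.753) with all samples. The neutrophil markers moved with Isg20 in these libraries, from 54.9 to 126 CPM in the 4 low RvD6si samples and 2000 CPM in the high one, and from 713 to 2300 CPM in the RvD6 samples against 113 to 601 CPM in vehicle. The erythroid markers did so too, at 935 to 2609 CPM in the 4 low RvD6si samples and 11981 CPM in the high one. They had 5729 to 10562 CPM with RvD6 and 2381 to 5060 CPM with vehicle. Replicate 15 was also the library with the fewest counted reads, 4125962. The part of these cells and of depth in the Isg20 values was not tested.

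**Figure D4:**
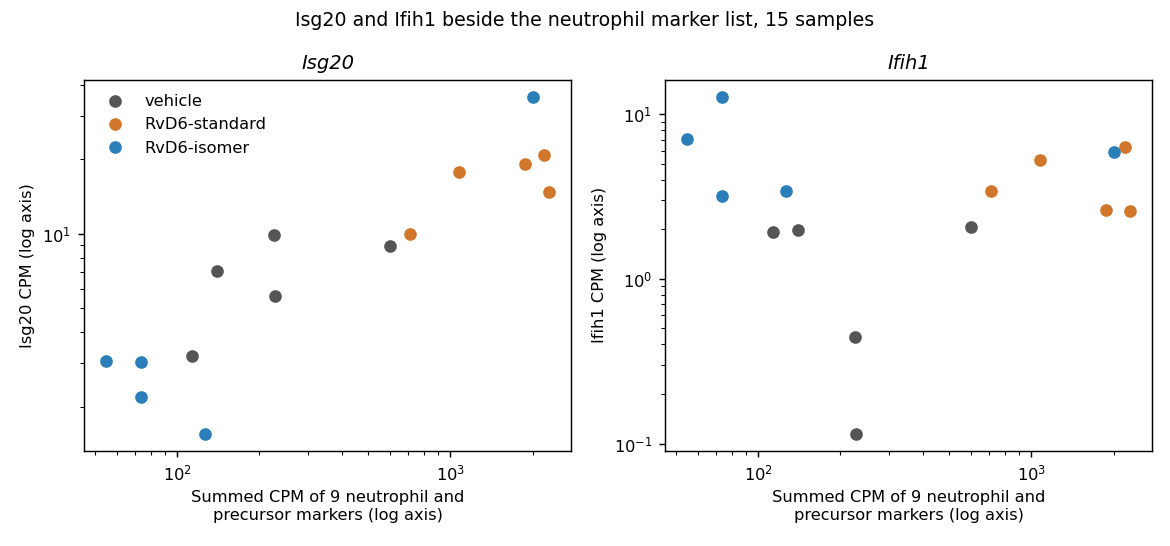
CPM of Isg20 (left) and Ifih1 (right) against the summed CPM of 9 neutrophil and precursor markers in the 15 samples, both axes log. The RvD6si (RvD6-isomer) sample at 2000 CPM of markers has the highest Isg20 level, 35.8 CPM, and the other 4 lie at 1.56 to 3.07 CPM, whereas Ifih1 in the same sample is 5.89 CPM, within the range of its group.

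Trim25, the ubiquitin ligase that activates RIG-I, had log2 fold changes of 0.33 ± 0.41 for RvD6si and 0.52 ± 0.41 for RvD6 against vehicle. The 4 tested IFIT genes had no unadjusted p below 0.05 in any comparison. Their largest value was that of Ifit3 for RvD6si, 0.93 ± 0.55, and Ifit1 had -0.03 ± 0.40.

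Among the transcription factors, Stat2, the STAT of the type I interferon complex, was the one whose samples did not overlap between the lipids. Its samples had 29.4, 27.3, 17.6, 18.7 and 7.91 CPM with vehicle, 18.4, 14.8, 12.7, 18.2 and 12.7 CPM with RvD6, and 27.0, 23.0, 22.8, 24.4 and 24.9 CPM with RvD6si. All RvD6si samples were above all RvD6 samples, and the vehicle samples spanned both groups. The log2 fold change of RvD6si against RvD6 was 0.67 ± 0.27, with a 95% interval of 0.09 to 1.24 and an adjusted p of 0.474 in edgeR. Irf9, the partner of STAT2, had 0.49 ± 0.25 for RvD6si and 0.15 ± 0.25 for RvD6 against vehicle. Irf1, the early factor downstream of interferon gamma, had 0.29 ± 0.31 and 0.20 ± 0.31, and Irf7, which amplifies interferon alpha genes, had -0.24 ± 0.78 and 0.67 ± 0.78.

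Irgm1 encodes an immunity-related GTPase that regulates the other members of its family on vacuoles. It had 3.93, 6.21, 1.67, 3.99 and 0.803 CPM with vehicle, 5.42, 6.99, 7.79, 12.7 and 9.33 CPM with RvD6, and 9.66, 0.989, 4.48, 0.578 and 3.85 CPM with RvD6si. With RvD6, 4 of 5 samples exceeded every vehicle sample, and the RvD6si samples were the most dispersed. Irgm1 had a log2 fold change of 1.34 ± 0.62 for RvD6 (adjusted p = 0.353 in edgeR) and 0.23 ± 0.62 for RvD6si. Igtp, a vacuole-attacking or regulating GTPase of the same family, had 11.3, 27.9, 25.7, 21.4 and 5.73 CPM with vehicle, 37.2, 28.1, 15.6, 11.3 and 17.8 CPM with RvD6, and 11.4, 23.9, 18.6, 15.2 and 31.7 CPM with RvD6si. Its groups overlapped over most of their range. Gbp2, Gbp3 and Gbp7, the guanylate-binding proteins of the set, had values from -0.25 to 0.43 against vehicle in the 2 lipids.

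Ifitm3, Ifitm2 and Ifi35, which were among the 5 genes of highest RPKM, had log2 fold changes below 0 for RvD6si against vehicle, none of them past the threshold. After removal of the length trend the values of Ifitm3 and Ifitm2 for RvD6si were -0.16 and -0.12. Ifitm3 had 59.7, 59.6, 88.4, 59.5 and 51.6 CPM with vehicle, 69.6, 64.3, 56.9, 60.3 and 54.7 CPM with RvD6, and 30.4, 60.9, 41.4, 45.2 and 65.5 CPM with RvD6si. Of the RvD6si samples 3 were below the other groups and 2 were not, with a log2 fold change of -0.39 ± 0.20 against vehicle (adjusted p = 0.345 in edgeR). Ifitm2 had 7.65, 8.32, 8.03, 7.70 and 9.40 CPM with vehicle, 6.07, 4.05, 3.31, 6.86 and 8.91 CPM with RvD6, and 5.14, 7.04, 4.74, 5.06 and 10.4 CPM with RvD6si. In each lipid 4 of 5 samples of Ifitm2 were below every vehicle sample. Its log2 fold changes were -0.49 ± 0.33 for RvD6 and -0.35 ± 0.33 for RvD6si, with adjusted p-values of 0.537 and 0.648 in edgeR. Ifi35 had 39.2, 32.7, 27.0, 28.9 and 21.2 CPM with vehicle, 36.9, 23.9, 24.2, 17.99 and 35.2 CPM with RvD6, and 12.0, 23.0, 26.1, 26.7 and 17.4 CPM with RvD6si. The RvD6si samples of Ifi35 lay in the lower part of the vehicle range or under it, with -0.50 ± 0.25 (adjusted p = 0.349 in edgeR).

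**Figure D5:**
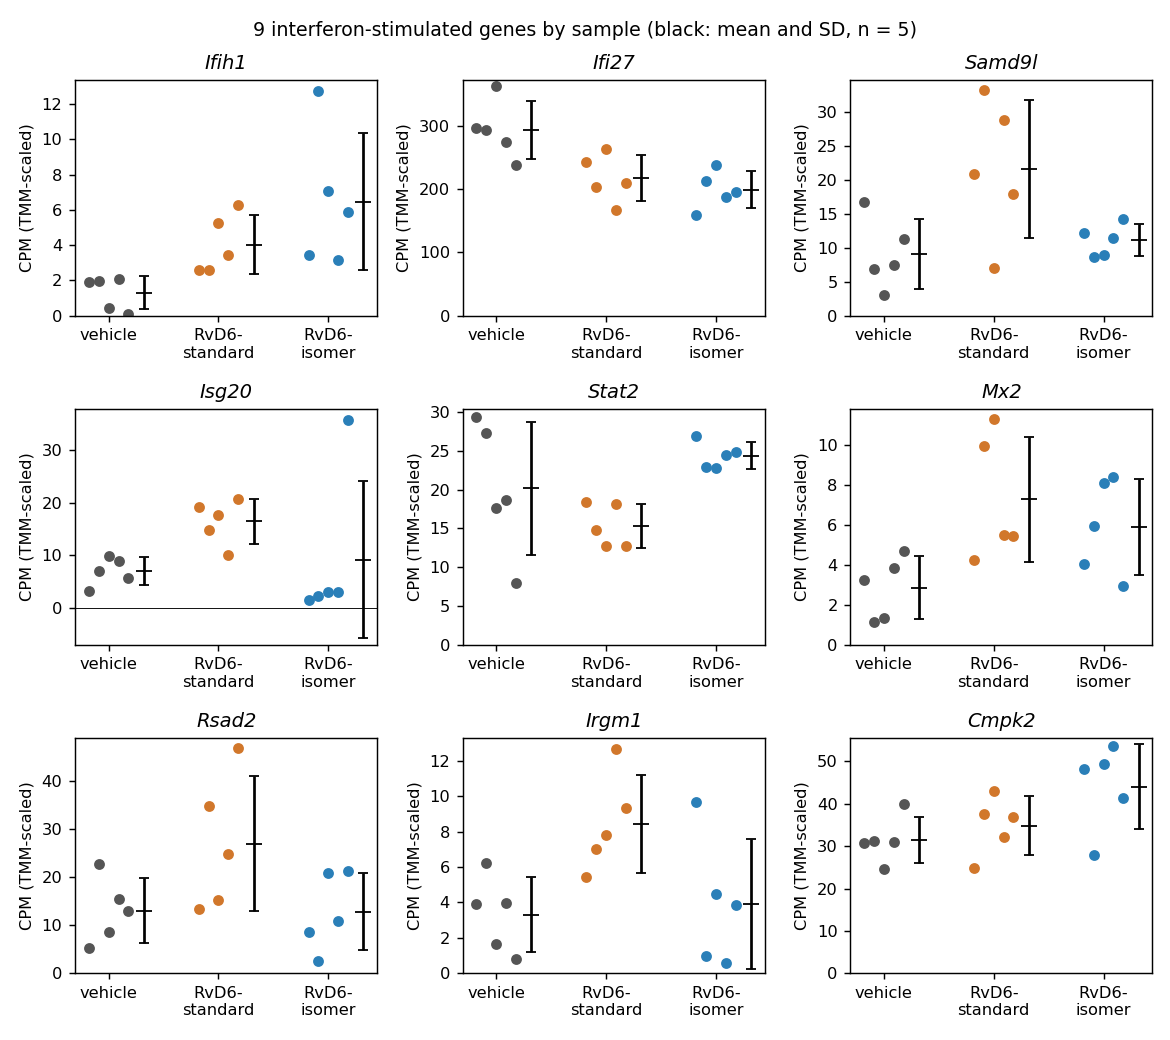
CPM (TMM-scaled) of 9 genes in each sample, by group, with the mean and SD in black (n = 5). Ifih1 is above vehicle in all 10 treated samples, Ifi27 is below vehicle in all 5 RvD6si samples (RvD6-isomer), and Isg20 in RvD6si has 1 sample at 35.8 CPM and 4 at 1.56 to 3.07 CPM.

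The average over the set did not separate the groups. Averaged over the 35 tested genes, the log2 CPM centred on the mean of all samples was -0.17 ± 0.29 in vehicle, 0.17 ± 0.18 with RvD6 and 0.01 ± 0.24 with RvD6si (mean ± SD over 5 samples). The ranges were -0.45 to 0.18, -0.03 to 0.39 and -0.25 to 0.37, and they overlapped. The summed CPM of all 40 genes was 741 ± 59.8, 724 ± 19.7 and 683 ± 77.4, so the order of the groups was not the same on the 2 scales, the sum being carried by Ifi27.

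RvD6si and RvD6, which differ in stereochemistry, were compared directly in the same fit at the same treatment schedule and day; the labels give no dose for either lipid. It was 1 of 3 pairs of groups compared, and p-values were adjusted over all genes within each pair. No gene of the set passed the adjusted threshold. The intervals of RvD6si against RvD6 on the log2 scale ran from -0.44 to 0.18 for Ifi27, from -0.75 to 0.08 for Ifitm3, from -0.09 to 0.76 for Cmpk2 and from -0.53 to 1.91 for Ifih1. For Samd9l the interval ran from -1.81 to -0.12, for Rsad2 from -2.10 to -0.06 and for Irgm1 from -2.41 to 0.19. A difference of 1 log2 unit or more was thus not within the intervals of Ifi27, Ifitm3 and Cmpk2, but it was within those of Ifih1, Samd9l, Rsad2, Irgm1 and Stat2.

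The rest of the interferon pathway was covered by 86 further genes, of which 61 were tested. None of the 10 interferon genes examined passed the filter, and 9 of them, including Ifnb1 and Ifng, had no read in any sample, while Ifnk had 17 reads in all. The receptor genes were readable, and 5 of 6 were tested. For RvD6si against vehicle 2 of the 5 had a log2 fold change above 0 and 3 below 0, from -0.49 to 0.56. Ifnar2 had a log2 fold change of -0.49 ± 0.19 and Ifngr1 of -0.40 ± 0.17 for RvD6si against vehicle, with adjusted p-values of 0.209 and 0.257 in edgeR. Ifnar1, which encodes the other type I receptor chain, had 12.3 to 33.8 CPM with vehicle and 24.6 to 37.6 CPM with RvD6si.

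By the adjusted threshold of edgeR, 0 of the 61 pathway genes were called in each of the 3 comparisons. At an unadjusted p below 0.05 there were 7 for RvD6si against vehicle (4 higher, 3 lower), 6 for RvD6 against vehicle (all higher) and 11 between RvD6si and RvD6 (2 higher and 9 lower). Of all genes tested, 8.69% were higher and 7.3% lower by this rule in the first of these comparisons, 7.63% and 5.99% in the second, and 4.18% and 4.64% in the third. Slfn8, a Schlafen gene, had 0.111 to 0.412 CPM with vehicle, 1.25 to 5.31 CPM with RvD6 and 0 to 1.92 CPM with RvD6si. Its log2 fold change for RvD6 was 3.35 ± 0.82 (adjusted p = 0.119 in edgeR and 0.00669 in DESeq2), from at most 3 reads per vehicle sample. Stat3, which transduces several cytokines, was higher in all RvD6si than in all RvD6 samples, with 0.56 ± 0.16 (adjusted p = 0.215 in edgeR), and the guanylate-binding gene Gbp4 had -2.19 ± 0.75 for RvD6si against vehicle (adjusted p = 0.151 in edgeR).

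Of the 34 further interferon-stimulated genes tested, 30 had a log2 fold change above 0 for RvD6 against vehicle, with a median of 0.59, where 52.2% of all genes were above 0. For RvD6si against vehicle 20 of the 34 were above 0, with a median of 0.08, where 51.2% of all genes were. For RvD6si against RvD6, which uses the same 5 RvD6 samples, 7 of the 34 were above 0, with a median of -0.63, where 49.5% of all genes were above 0. Several marker lists moved with the RvD6 group: beside the neutrophil, erythroid, muscle and sensory neuron values given above, B cell markers summed to 17.3 to 63.5 CPM with RvD6 and 4.01 to 26.0 CPM with vehicle, and fibroblast markers to 1325 to 2087 and 1316 to 1601 CPM, and in both lists the ranges overlapped. All 5 fibroblast markers had log2 fold changes above 0 for RvD6 against vehicle, with a median of 0.64. Plasmacytoid dendritic cell markers summed to 1.95 to 13.2 CPM with RvD6 and 0.302 to 7.91 CPM with vehicle. T and NK cell markers summed to 3.77 to 27.6 and 0.917 to 6.05 CPM, and these ranges overlapped too. Few of their genes were tested, 2 of 3 and 1 of 8. These were above 0 for RvD6 against vehicle, none with an unadjusted p below 0.05 in edgeR. Macrophage markers summed to 78.1 to 148 and 76.3 to 118 CPM. Only 5 of the 8 had log2 fold changes above 0 for RvD6 against vehicle, with a median of 0.36. An unadjusted p below 0.05 in edgeR was found for 3 of the 8, and 0 passed the adjusted threshold. The part of these cells in the values of the pathway genes was not tested.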

How the data were processed

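The authors aligned reads to GRCm38 with RSubread and GENCODE release 22 and counted them per gene with featureCounts (Subread 1.6.5 in the labels, while the header of the table names 1.5.0-p1). The deposited values are raw read counts of 15 samples, 5 per group, grouped here by the treatment in the labels; all sample columns were used. Strand and multi-mapping settings are not given in the sources used here. Symbols came from GENCODE release 21, which names 99.678% of the gene identifiers. The gene set, the pathway and marker lists and the naming rule were chosen with earlier results of these data known. Genes with per-sample values are those with an unadjusted p below 0.05 or non-overlapping groups in any comparison, or with the 5 highest mean RPKM; values of pathway genes were given for a few of those that passed the same test, and for the receptor and ligand genes. Pathway genes called by DESeq2 alone are named in the closing section, apart from a gene that is not reported here.

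Genes were tested in edgeR 4.0.16 (R 4.3.3) by the quasi-likelihood F test with a single model over the 3 groups and 15 samples, TMM normalization, the filterByExpr filter (minimum count 10, minimum total 15) and Benjamini-Hochberg adjustment over 16567 genes with a threshold of 0.05. SE values follow from the fold change and F, and intervals are at 95%. CPM used TMM-scaled library sizes, RPKM the library totals and exonic lengths, and centred log2 CPM a prior count of 2. Alternatives were DESeq2 1.42.0 and edgeR with all samples or the groups compared, RLE normalization, no filter, a mean CPM of at least 1, removal of the length trend (lowess, span 0.3), and each sample left out in turn. The steps were tested on simulated counts. Promoters were searched and plots drawn in Python 3.11.15 with pandas 2.3.3, NumPy 2.4.6, SciPy 1.17.1 and matplotlib 3.10.9.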

Additional observations from a re-analysis of the deposited data

Results flagged for a closer look

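In 10 of the 105 sets of 5 samples (35 genes in 3 groups), 1 sample lay far from the other 4 by Dixon's criterion. About 1 of 20 such sets meets it when values follow a normal distribution. CPM of low counts need not do so, and the rate for these data is not known. Isg20 was 35.8 CPM in RvD6si replicate 15, the library that also had the highest erythroid marker level. In vehicle, replicate 3 was apart for Ifitm3 (88.4 CPM) and Irf1 (37.6 CPM), and replicate 4 for Bst2 (3.44 CPM). Bst2 was at 0 in the other 4 vehicle samples. Vehicle replicate 3 was also the library with the highest pituitary marker level, 3720 CPM. With RvD6, replicate 7 was apart for Ifi44 (3.93 CPM) and replicate 9 for Iigp1 (14.9 CPM). With RvD6si, single samples were apart for Irf1 (13.2 CPM in replicate 11), Eif2ak2 (16.9 CPM in replicate 12), Ddx58 (25.2 CPM in replicate 13) and Parp14 (1.59 CPM in replicate 14).

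Stat2 was higher than the vehicle mean in all 5 RvD6si samples and lower in all 5 RvD6 samples. RvD6si minus RvD6 was 0.666 on the log2 scale, with an adjusted p of 0.474 in edgeR, so the difference did not pass the threshold.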

How the results depend on the processing

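No paired analysis was possible because the groups share no replicate number. For the 35 genes, 0 were called in all 3 comparisons under edgeR with the 2 groups compared, RLE normalization, no filter, the minimum mean CPM and the length trend removed. DESeq2 called 1 gene for RvD6si against vehicle with all samples and 1 with the 2 groups compared (Ifi27 in both), and 1 for RvD6 against vehicle with the 2 groups compared (Isg20, adjusted p = 0.0116). Over all genes, DESeq2 with all samples called 920, 369 and 185 where edgeR called 111, 0 and 39. Calls over all genes were not counted for DESeq2 with the 2 groups compared. Of the pathway genes, DESeq2 called 1 for RvD6si against vehicle with the 2 groups compared (Tbk1), 2 for RvD6 in both fits (Slfn8 among them) and 1 between the lipids with the 2 groups compared (Tgtp1), where edgeR called 0. With a sample left out, 0 genes of the set were called against vehicle, and between the lipids 0 to 1, the 1 being Isg20 without RvD6si replicate 15; pathway counts were 0 to 0 throughout. The median of the set then ranged from 0.14 to 0.27 for RvD6si, from 0.10 to 0.38 for RvD6 and from -0.04 to 0.10 between the lipids. Removing the length trend turned the log2 fold changes of Ifitm3 and Ifi35 for RvD6 to 0.056 and 0.0037, and for RvD6si it moved those of Ifitm3, Ifitm2, Samd9l, Stat2 and Irgm1 to -0.16, -0.12, 0.16, 0.16 and 0.10. Leaving out samples turned further values near 0. For RvD6si against vehicle, Isg20 ranged from -1.49 to 0.63, Igtp from -0.10 to 0.31, Irgm1 from -0.44 to 0.59 and Rsad2 from -0.29 to 0.26. For RvD6 against vehicle, Igtp ranged from -0.0145 to 0.45, Ifi35 from -0.24 to 0.0085 and Ifitm3 from -0.13 to 0.086. Between the lipids, Igtp ranged from -0.35 to 0.14, Ifitm2 from -0.087 to 0.34 and Isg20 from -2.73 to -0.62. When only the 150 bases before the start were searched, the ISRE core was in 41.9% of the 31 genes of the set with a window. Of all genes with a window, 1.85% had it there. The cause of these shifts was not tested. With 4125962 to 9903396 counts per sample, genes of a few reads such as Isg15, Oas3 and Slfn8 are limited by depth.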
